A study of Mus musculus with 12 samples.

Results

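The ankyrin genes Ank1, Ank2 and Ank3 were examined in the gene models that the authors deposited with RNA-seq of mouse nucleus accumbens. Members were the transcripts whose gene name was Ank1, Ank2 or Ank3. They were 3 of 35406 gene loci and 31 of 87740 transcripts in the file. The study sequenced poly(A) RNA from 12 samples of C57BL/6 mice, each made from 3 to 5 animals of 8 to 10 weeks, as 3 samples in each of 4 groups. The groups were repeated cocaine (20 mg/kg by intraperitoneal injection daily for 7 days), repeated saline (7 days), acute cocaine (6 days of saline, then 1 day of cocaine at 20 mg/kg) and acute saline (7 days). The models belong to no single sample and hold no value of any sample. No level of an ankyrin in any group, no depth per sample and no comparison between cocaine and saline was therefore analysed here, the nucleus accumbens label could not be checked against markers, and all values below are counts and lengths read from the models and from the mm9 genome.

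Ankyrins are adaptors that tie membrane proteins to the spectrin cytoskeleton. Each canonical form begins with a long array of ankyrin repeats, which binds ion channels, transporters and cell adhesion molecules, and continues with a spectrin-binding region, a death domain and a variable tail. Ank1 encodes ankyrin-R, best known from red blood cells, and also small forms of the sarcoplasmic reticulum. Ank2 encodes ankyrin-B, found broadly in neurons and heart. Ank3 encodes ankyrin-G, which organises the axon initial segment and nodes of Ranvier. Neurons are known to make giant forms of ankyrin-B and ankyrin-G in which a very long internal exon inserts a long segment into the canonical protein.

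Sequences at which the 3 genes can be compared are shown first. The 99-base exon below stood at the same place in the repeat array of each gene and had the most bases common to all 3 among the 99-base exons of a run of 14 array exons that the genes share. Capitals mark the bases shared by all 3 genes, 65 of 99. The exons lie at chr8:24205684-24205782 on the plus strand, chr3:126732393-126732491 on the minus strand and chr10:69337538-69337636 on the plus strand.
Ank1 repeat exon: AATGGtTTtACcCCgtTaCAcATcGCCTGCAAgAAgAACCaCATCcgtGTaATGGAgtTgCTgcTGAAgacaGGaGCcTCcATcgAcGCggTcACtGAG
Ank2 repeat exon: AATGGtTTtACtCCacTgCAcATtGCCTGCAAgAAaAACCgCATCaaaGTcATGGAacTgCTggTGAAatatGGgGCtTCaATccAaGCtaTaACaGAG
Ank3 repeat exon: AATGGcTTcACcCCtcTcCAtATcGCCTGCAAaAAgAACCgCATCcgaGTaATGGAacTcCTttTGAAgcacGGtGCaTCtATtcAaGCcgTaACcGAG

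The ends of the giant exon of Ank2 are shown because that exon was the only internal exon over 1000 bases in the 3 genes. Capitals mark exon bases, and lower case marks the intron on the minus strand. The acceptor window is chr3:126650696-126650765 and the donor window is chr3:126644488-126644557.
Ank2 giant exon acceptor: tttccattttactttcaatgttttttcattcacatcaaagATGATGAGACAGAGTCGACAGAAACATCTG
Ank2 giant exon donor: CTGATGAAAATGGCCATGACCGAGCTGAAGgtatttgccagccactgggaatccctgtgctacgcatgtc
The intron before the exon ended in AG and the intron after it began with GT.

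No model of Ank3 held an exon at the matching place, but the intron there held a long stretch without stop codons. The 30-codon window in which that stretch and the Ank2 giant exon were most alike without gaps is given here, at chr3:126645876-126645965 (minus strand, exonic) and chr10:69455052-69455141 (plus strand, intronic). Capitals mark the 67 of 90 bases that both share. The translations of the window were identical at 25 of 30 residues.
Ank2 giant exon window: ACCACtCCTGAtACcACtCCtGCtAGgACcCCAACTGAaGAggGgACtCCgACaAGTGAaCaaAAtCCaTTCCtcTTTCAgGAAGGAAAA
Ank3 intron window: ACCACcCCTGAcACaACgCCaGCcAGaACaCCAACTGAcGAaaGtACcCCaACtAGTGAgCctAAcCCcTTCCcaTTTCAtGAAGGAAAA

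The 3 genes were large and had many exons. Ank1 spanned 176 kb on chromosome 8 (chr8:24085294-24260969, plus strand), with 15 transcripts of 2 to 45 exons. Ank2 spanned 487 kb on chromosome 3 (chr3:126624525-127111949, minus strand), with 9 transcripts of 11 to 49 exons. Ank3 spanned 493 kb on chromosome 10 (chr10:68996970-69490184, plus strand), with 7 transcripts of 9 to 43 exons. A protein identifier was carried by 13 of the 15 Ank1 transcripts, all 9 of Ank2 and all 7 of Ank3. In number of distinct internal exons (exons that are neither first nor last) the ankyrins stood near the top of the 23824 loci with more than 1 exon: Ank2 had 51, which 0.739% of loci reached, Ank1 had 47 (0.953%) and Ank3 had 42 (1.32%). The median internal exon was 99 bases in each of the 3 genes, against 124 bases over the 188596 distinct internal exons of the file. All exon coordinates of 29 of the 31 transcripts were identical to those of the same Ensembl identifier in GENCODE M1, an annotation of the same build. The other two were Ank1 transcripts whose ends differed.

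**Figure D1:**
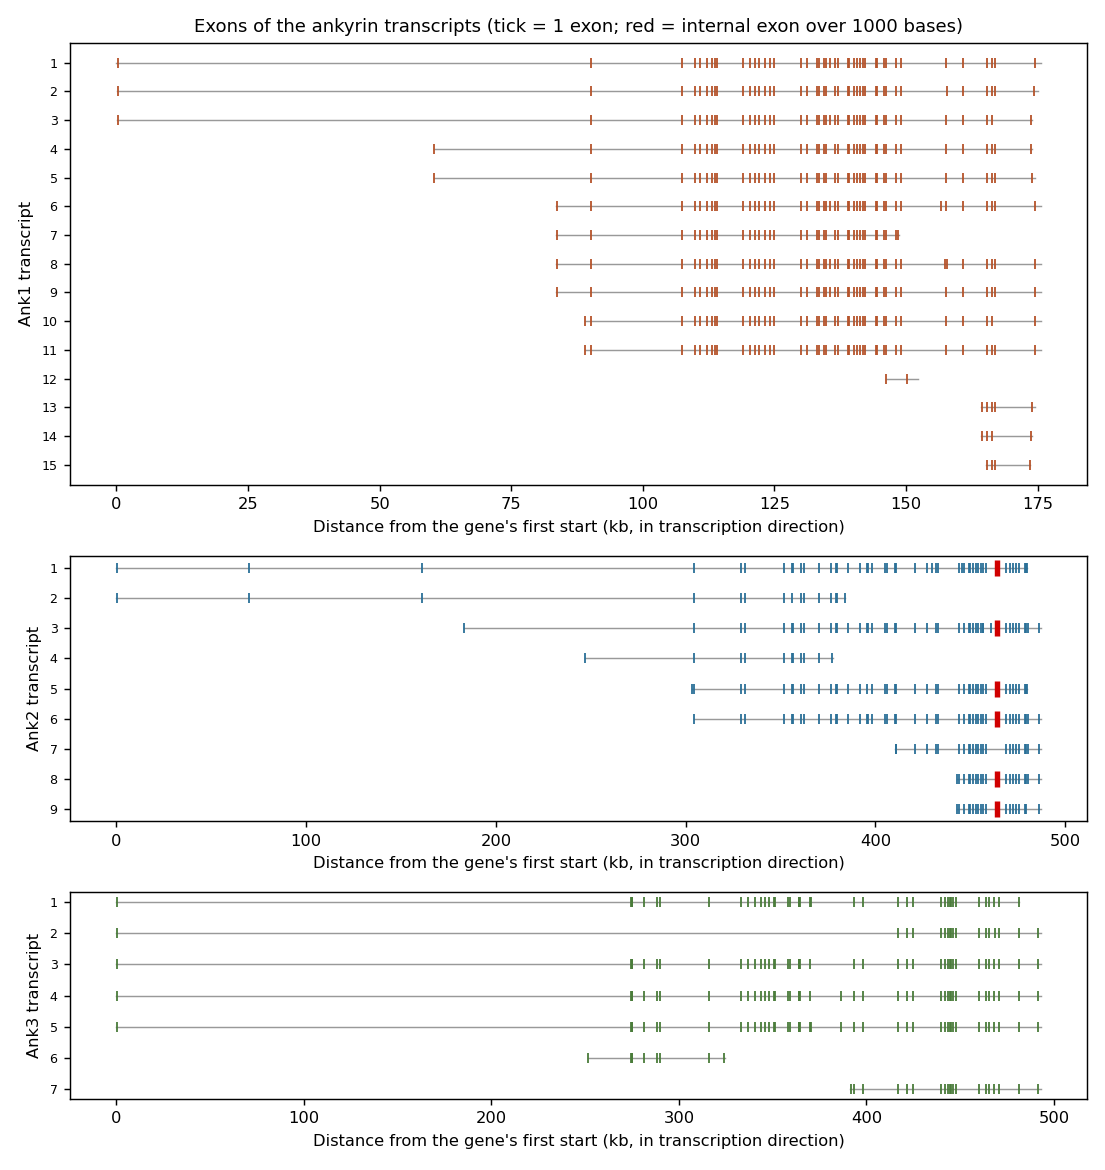
Exons of all transcripts of Ank1 (15), Ank2 (9) and Ank3 (7), 1 transcript per row, against the distance in kb from the first start of the gene in the direction of transcription. Each tick is the centre of 1 exon, and the wide red ticks are the giant exon of Ank2, present in 6 transcripts; transcripts begin at 7, 7 and 3 start sites.

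Transcripts are numbered from the most 5′ start of each gene. In the file, each transcript start belongs to a TSS group, a set of transcripts that share a start, and Ank1 and Ank2 had 7 TSS groups each, a number reached by 3.90% of loci. Ank3 had 3, which 25.5% of loci reached. The starts of Ank1 lay at 0, 60.3, 83.4, 89.0, 146, 164 and 165 kb from its first start. The first 4 of these served the 11 transcripts with the repeat array, and the sixth (chr8:24249502) served transcripts 13 and 14, of 5 and 4 exons. GENCODE M1 gives these small forms 155 and 156 codons, against 1115 to 1907 codons in 10 of the 11 transcripts with the array. The 1115 codons are those of transcript 7, whose start codon lies 1527 bases into the model, after part of the array. Transcript 6 has 572 codons and is typed there as subject to nonsense-mediated decay. The fifth and seventh starts each served 1 transcript without a protein identifier, both annotated as retained introns.

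The starts of Ank2 were spread more widely, at 0, 183, 247, 303, 304, 411 and 443 kb from the first. Transcripts 1 and 2 shared the first start, transcripts 8 and 9 shared the last, and each of the other 5 starts had 1 transcript. The last start (chr3:126669011) lay past the repeat array. Transcripts 8 and 9 held no internal exon of 99 bases or a multiple and kept the giant exon. Ank3 began at chr10:68996970 in 5 of 7 transcripts, 251 kb further in transcript 6 and 391 kb further in transcript 7. The introns from the first Ank3 start were the longest in the 3 genes. The first exon of 63 bases was joined over 274 kb to the repeat array in transcripts 1, 3, 4 and 5, and over 417 kb to an exon past the array in transcript 2.

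Not every annotated start was the 5′ end of a full transcript. By the coding sequence of GENCODE M1, bases before the start codon were present at 4 of the 7 start sites of Ank1, 3 of 7 of Ank2 and 2 of 3 of Ank3. The models of Ank3 transcripts 1 to 5 began at their start codon, as did Ank1 transcripts 10 and 11 and Ank2 transcript 3. Ank2 transcripts 5, 6, 8 and 9 had no annotated start codon and began inside coding sequence. These 12 models held no untranslated bases at the 5′ end, so their first base gives where the model begins.

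Ank2 was also the only one of the 3 with introns outside the usual splice signals. All 57 distinct introns of Ank1 and all 50 of Ank3 began with GT and ended in AG, as did 63 of the 65 of Ank2. The share over all 238517 introns of the file was 96.8%. The exceptions in Ank2 were the first introns of transcripts 5, 8 and 9, which followed first exons of 21, 8 and 8 bases. They are given here with exon bases in capitals and the next 10 bases in lower case, at chr3:126808797-126808827 and chr3:126668994-126669011 on the minus strand.
Ank2 21-base first exon: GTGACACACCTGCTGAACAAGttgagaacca
Ank2 8-base first exon: CATTCCAGctaagctgct
These introns began with TT and CT, and both belonged to start sites without an annotated start codon.

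Base composition differed between the start sites. In the window from 250 bases before to 50 bases after the start, 4 of the 17 ankyrin start sites had a CpG ratio (observed over expected) above 0.6 with more than 50% G+C, namely the first of Ank1 and those at 183, 247 and 303 kb in Ank2. Of these Ank2 sites only that at 247 kb had bases before the start codon. The model at 183 kb began at its start codon and that at 303 kb inside coding sequence. At 303 kb, where the CpG ratio was 1.12, repeats of TCG, TCC and TTC made up much of the sequence before the start. Of the 50440 TSS groups of the file with a complete window, 31.1% met both limits. The first start of Ank1 had 84.7% G+C and a CpG ratio of 1.00, and the other six Ank1 starts had ratios of 0.238 to 0.456. The start sites of Ank3 had ratios of 0.195 to 0.325. The 100 bases before 4 starts are shown, with CG in capitals. They are, in each gene, the start with the highest CpG ratio among those with bases before the start codon, and the start of the small Ank1 forms. They lie at chr8:24085194-24085293 (plus strand), chr3:126865255-126865354 (minus strand), chr10:69248173-69248272 (plus strand) and chr8:24249402-24249501 (plus strand).
Ank1 start site 1: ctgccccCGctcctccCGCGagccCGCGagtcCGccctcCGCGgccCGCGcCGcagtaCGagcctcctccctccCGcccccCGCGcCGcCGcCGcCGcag
Ank2 start site 3: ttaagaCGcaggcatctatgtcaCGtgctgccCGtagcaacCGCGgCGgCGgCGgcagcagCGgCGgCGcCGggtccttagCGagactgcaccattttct
Ank3 start site 2: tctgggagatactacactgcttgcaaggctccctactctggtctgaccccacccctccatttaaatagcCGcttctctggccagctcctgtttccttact
Ank1 start site 6: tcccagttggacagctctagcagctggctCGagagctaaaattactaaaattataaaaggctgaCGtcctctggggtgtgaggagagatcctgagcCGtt
CG occurred 19 times before the first Ank1 start, 13 times before the Ank2 start at 247 kb, once before the second Ank3 start and 3 times before the start of the small Ank1 forms.

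**Figure D2:**
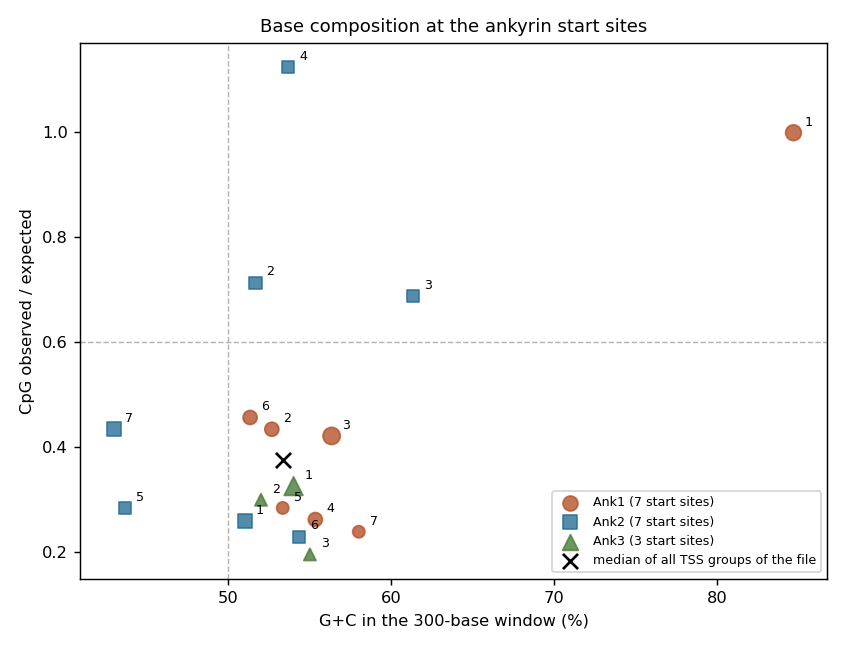
CpG observed over expected against G+C (%) in the 300-base window of the 17 ankyrin start sites, numbered from the 5′ end of each gene, with larger symbols for more transcripts. The cross is the median of all TSS groups of the file, and dashed lines mark 0.6 and 50%; 1 Ank1 site and 3 Ank2 sites lie above both lines.

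The repeat array was laid out in exons of 99 bases or a multiple, the length of 1 or more ankyrin repeats of 33 residues. Such exons made up 17 of 47 distinct internal exons of Ank1 (36.2%), 20 of 51 of Ank2 (39.2%) and 17 of 42 of Ank3 (40.5%). Over all internal exons of the file the share was 1.28%. These exons were counted by length alone, and 2 of the 20 in Ank2 lay outside the array, one at 161 kb, before the 102-base exon that opens it, and one past it, between exons of 225 and 155 bases. Ank2 had 17 exons of exactly 99 bases and 3 of 198, and Ank1 and Ank3 had 14 and 3 each. The counts of the 3 ankyrins were the highest of all gene names in the file. Outside the ankyrins, titin (Ttn) had 11 among 354 internal exons, and Kidins220, a scaffold protein with ankyrin repeats, had 10 among 32. Next came 4 genes with 8 each, of which Ankdd1a and Ankdd1b encode ankyrin repeats with a death domain, and Neb and Nrap encode nebulin and a nebulin-related protein of muscle.

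The order of exon lengths was shared between the genes. Transcript 1 of Ank1 and transcript 1 of Ank3 had 19 consecutive internal exons of equal length, 102, 99, 99, 99, 186, 99, 99, 99, 198, 99, 99, 99, 198, 99, 99, 198, 99, 99 and 99 bases. Ank2 shared the last 14 of these with both, and differed in the exon of 24 bases that most of its transcripts held after the 186-base exon. Past the array the lengths 225, 155 and 212 bases, then 97, 229 and 126 bases, and 75 and 132 bases recurred in all 3 genes. Counted in order with gaps allowed, 31 internal exons had the same length in Ank2 and Ank3, 30 in Ank1 and Ank2 and 28 in Ank1 and Ank3.

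Base identity over the 14 shared exons, without gaps, was 70.2% between Ank2 and Ank3, 66.8% between Ank1 and Ank3 and 64.9% between Ank1 and Ank2. Of the 1683 bases, 932 (55.4%) were the same in all 3 genes. Single exons ranged from 46.5% to 65.7% of bases common to all 3, and the fifth of the run was the highest; it is the exon printed above. Over all exons of equal length, those of 99 bases or a multiple were 70.7% and those of other lengths 67.1% identical between Ank2 and Ank3. Those of other lengths included the exons of 102 and 186 bases in the array. The lowest single exon, of 144 bases near the 3′ end, was 44.4% identical, and the highest, of 99 bases, 80.8%.

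**Figure D3:**
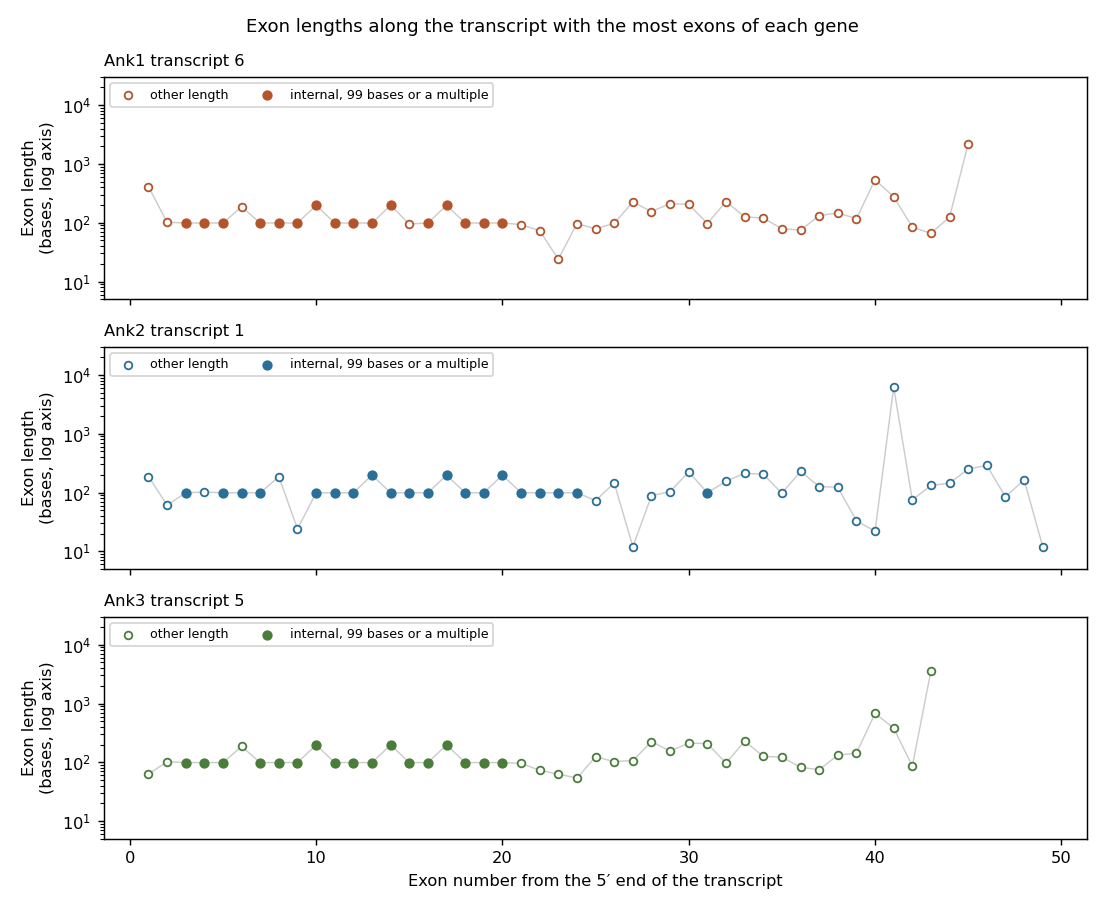
Exon length in bases (log axis) against exon number for the transcript with the most exons of each gene (Ank1 transcript 6, Ank2 transcript 1, Ank3 transcript 5). Filled points are internal exons of 99 bases or a multiple; the 6198-base exon of Ank2 stands out, and neither Ank1 nor Ank3 has a match for it.

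The giant exon of Ank2 was 6198 bases long (chr3:126644528-126650725, minus strand), which is 2066 codons. It was 21.4 times as long as the next internal exon of the gene (289 bases) and held 51.0% of all distinct internal exon bases of Ank2. It was the 20th longest of the 188596 internal exons of the file, of which 1.09% were over 1000 bases, and 0.0798% of loci had an internal exon at least as long. The 5 genes with the longest were Ttn (17106 bases), Stard9 (9837), Fsip2 (9659), Cmya5 (9310) and Xirp2 (9265). Reading from the first base of the exon, the first 2 frames held 101 and 180 stop codons and the last held none, and the phase of the exon in GENCODE M1 is that same frame.

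The giant exon was held by 6 of the 7 Ank2 transcripts that span its place (85.7%). Transcripts 1, 3, 5, 6, 8 and 9 held it, and in these it made up 43.6% to 55.6% of all transcript bases. Transcript 7 (5770 bases, 25 exons) skipped it, joining the 22-base exon before it to the 75-base exon after it. Transcripts 2 and 4 ended before it, with last exons of 771 and 1141 bases. Since 6198 is a multiple of 3, transcripts with and without the exon continue in the same frame. The coding sequence had 3839 to 3934 codons in the 4 transcripts with the repeat array and the giant exon. It had 2990 and 2929 codons in transcripts 8 and 9, which have the giant exon alone, and 1050 codons in transcript 7. GENCODE M1 gives no stop codon for transcripts 1, 3 and 5 and no start codon for transcripts 5, 6, 8 and 9. No count for a transcript with the giant exon is therefore of a coding sequence annotated at both ends. No Ank2 model joined the full repeat array to the 75-base exon without the giant exon, which is the exon order of the canonical form: transcript 7, the one that skipped the giant exon, held 1 exon of the array. These counts are of models and not of RNA molecules, and say nothing of how much of each form the nucleus accumbens held.

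**Figure D4:**
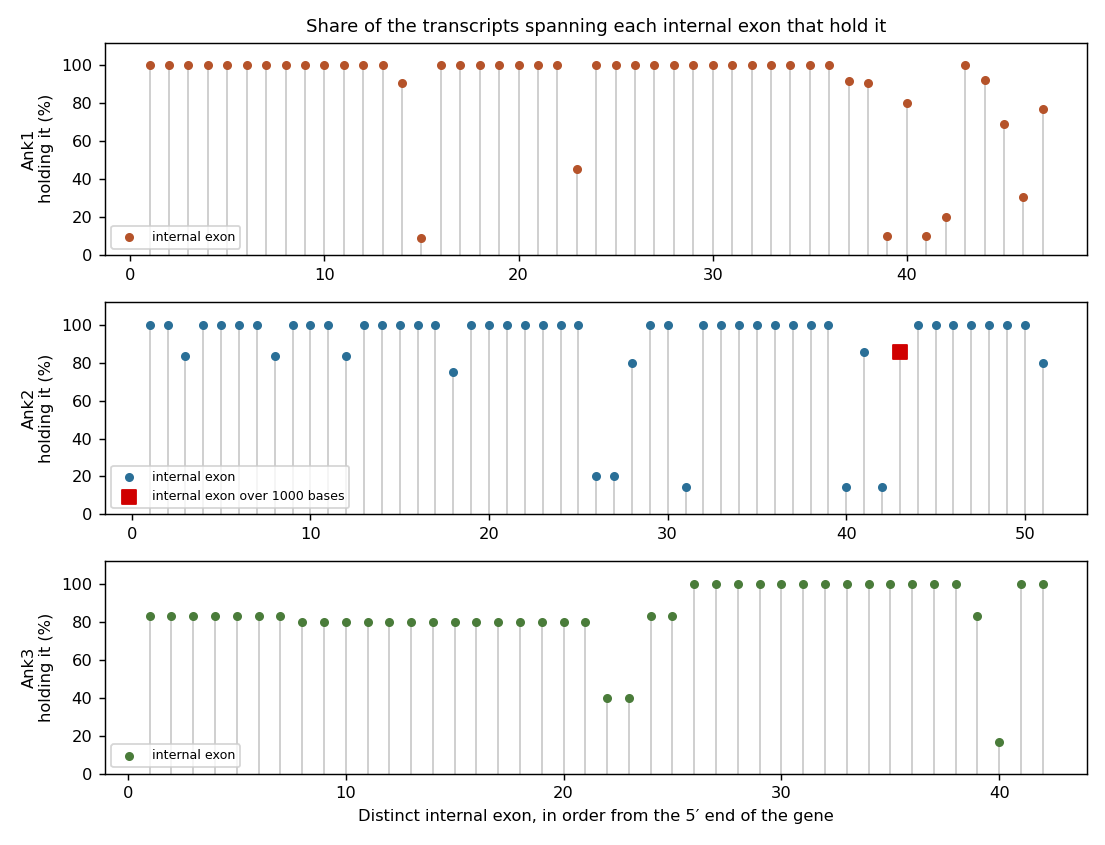
Share (%) of the transcripts spanning each distinct internal exon that hold it with the same coordinates, in order from the 5′ end, for Ank1 (47 exons), Ank2 (51) and Ank3 (42). The red square is the giant exon of Ank2, held by 6 of 7; the low values are cassette exons, alternative ends and very short Ank2 exons of single transcripts, and the run at about 80% in Ank3 is the repeat array, which transcript 2 lacks.

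Neither Ank1 nor Ank3 had an internal exon over 1000 bases in any model. The longest were 538 bases in Ank1 (chr8:24242569-24243106) and 679 bases in Ank3 (chr10:69464671-69465349), lengths that 16.7% and 12.9% of loci reached. The matching place differed between the genes in another way. The intron before the 75-base exon was 286 bases in all 11 Ank1 transcripts that had it and 12174 bases in all 6 Ank3 transcripts that had it (chr10:69444946-69457119). In Ank2 the intron of transcript 7 over the giant exon was 10588 bases.

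Inside the Ank3 intron, 7707 consecutive bases on the coding strand (2569 codons, chr10:69448830-69456536) had no stop codon in 1 of the 3 reading frames. The stretch took up 63.3% of the intron and ended 583 bases before the 75-base exon. In the matching Ank2 intron the longest such stretch was 6279 bases and contained the whole giant exon. In Ank1 it was 144 bases. Among all other Ank3 introns without an exon over the stretch the longest was 810 bases, and among those of Ank1 and Ank2 it was 630 and 753 bases. The ends of the stretch are the nearest stop codons, not splice sites.

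Stretches of 5000 bases or more were rare in introns. Of 176404 introns of transcripts with a protein identifier and of at least 300 bases, 23 held one, and the median longest stretch was 309 bases. Introns can overlap and share a stretch. Counted as distinct stretches, 6 had no exon of the same strand over them: those in Ulk4 (17238 bases), Flg2 (9156), Ank3 (7707), Arid4a (6792), Pfkp (6582) and Stam2 (6096). The Ank3 stretch differed from the other five in its sequence. Compressed as text it took 0.313 bytes per base, close to the 0.311 of the Ank2 giant exon, while the other five took 0.0164 to 0.0399, as highly repetitive sequence does.

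The translation of the Ank3 stretch aligned to that of the Ank2 giant exon over most of its length. In a local alignment, 1795 codons were paired, 86.9% of the giant exon, and 550 of the pairs (30.6%) were identical. The alignment score was 917, and the scores of the other five stretches against the same exon were 37.0 to 110. In blocks of 100 codons along the Ank2 exon the identity ranged from 14.4% to 46.1%, with a median of 30.8%. The alignment began at codon 23 of the Ank2 exon and codon 420 of the Ank3 stretch, and ended at codons 2023 and 2525. No exon of the deposited models and no Ank3 transcript of GENCODE M1 covered the stretch, so reads from it would be counted as intronic under these models.

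**Figure D5:**
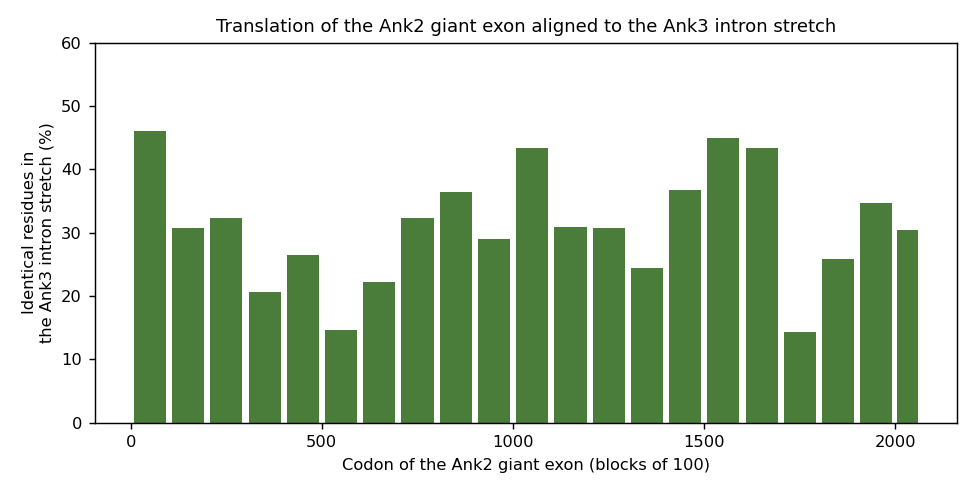
Identical residues (%) between the translations of the Ank2 giant exon and the stop-free Ank3 intron stretch, in blocks of 100 codons along the Ank2 exon (1 bar per block, 21 blocks with at least 20 aligned codons). Identity ranged from 14.4% to 46.1%.

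The smaller exons that vary between transcripts were distributed differently in the 3 genes. Exons skipped by an intron joining their own neighbours numbered 4 in Ank1, 5 in Ank2 and 2 in Ank3, the giant exon included. Of all distinct internal exons of the file, 40% had a length that is a multiple of 3. In Ank1, Ank2 and Ank3, 32 of 47, 35 of 51 and 28 of 42 internal exons did. Of the 11 skipped exons, 10 had such a length. The exception was an Ank1 exon of 125 bases near the 3′ end, held by 10 of 13 transcripts. Of these cassettes, the 4 of at most 63 bases are shown with 20 intron bases on each side and the exon in capitals. Each adds a short segment to the transcript in or just after the repeat array. They lie at chr8:24220799-24220862 (plus), chr3:126755124-126755187 (minus), chr10:69367176-69367278 (plus) and chr10:69383166-69383259 (plus).
Ank1 24-base exon: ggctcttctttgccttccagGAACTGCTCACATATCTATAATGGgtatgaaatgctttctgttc
Ank2 24-base exon: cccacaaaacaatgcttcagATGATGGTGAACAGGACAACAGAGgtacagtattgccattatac
Ank3 63-base exon: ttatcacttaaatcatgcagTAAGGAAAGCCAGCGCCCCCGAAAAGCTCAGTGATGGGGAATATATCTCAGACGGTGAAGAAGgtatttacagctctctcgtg
Ank3 54-base exon: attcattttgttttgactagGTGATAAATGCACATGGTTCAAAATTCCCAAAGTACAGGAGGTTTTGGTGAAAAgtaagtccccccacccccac
The Ank1 exon was held by 5 of 11 transcripts and the Ank2 exon by 5 of 6. Among the 5 of Ank1 was transcript 6, whose coding sequence of 572 codons ends before the exon. The Ank3 exons were held by 2 of 5 transcripts each and lay next to each other after the 73-base exon. Transcript 1 had the 63-base exon, transcript 4 the 54-base exon, transcript 5 both and transcript 3 neither, so each combination occurred in 1 of the 4 Ank3 transcripts with the repeat array.

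Alternative exon ends gave further variety in the tails of Ank1 and Ank3. The 538-base exon of Ank1 was held whole by 8 of 10 transcripts. Transcript 8 had its first 375 and its last 73 bases as separate exons, and transcript 2 had only the last 73. The 66-base exon of Ank1 was used by 9 transcripts and its longer form of 141 bases by 4. In Ank3 the 679-base exon was held by 5 of 6 transcripts, and transcript 2 used only its last 91 bases. Ank1 ended at 11 different 3′ positions, Ank2 at 4 and Ank3 at 3, with last exons of 89 to 4278, 12 to 2365 and 66 to 3605 bases. Model ends need not be ends of full transcripts. The Ank1 extremes were transcripts 15 and 12, both annotated as retained introns. The 12-base last exons were those of Ank2 transcripts 1 and 5, which had no annotated stop codon. Of the 5832 bases of Ank3 transcript 1, with the 66-base last exon, 5829 were coding. Some Ank1 ends were adjacent bases, such as chr8:24260968 and chr8:24260969.

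Some Ank2 models held very short internal exons. Of its 51 internal exons, 5 were of at most 27 bases, against 1 of 47 in Ank1 and none of 42 in Ank3. In the whole file, 2448 of the 188596 internal exons were that short. Before the giant exon, transcript 3 had exons of 17 and 5 bases in place of the 22-base exon of the others. Their sum equals the length of the 22-base exon, but they lie elsewhere in the intron. Transcript 1 had exons of 12 and 88 bases in place of one of 103 bases, and a 99-base exon between those of 225 and 155 bases that none of the other 6 spanning transcripts held.

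Transcripts without the repeat array occurred in each gene. At least 10 internal exons of 99 bases or a multiple were held by 11 of 15 Ank1 transcripts, 5 of 9 of Ank2 and 4 of 7 of Ank3, and none by 4, 2 and 2. In Ank3 the 2 with none were transcript 2, from the first start, with 838 codons, and transcript 7, from the third start, with 1094 codons. Transcript 6 of Ank3 ended after 5 such exons, and transcripts 4 and 7 of Ank2 held 6 and 1. Ank2 transcript 2 reached 10 only with the exon at 161 kb, outside the array, and without it the Ank2 count was 4 of 9.

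GCATG is the core of the motif bound by the RBFOX splicing factors that include A2BP1. It was searched on the coding strand in up to 300 intron bases on each side of the giant exon and the other 10 cassette exons. It occurred beside 8 of the 11, against 43.2% of all internal exons of the file with flanks taken in the same way. The giant exon had 2 matches after it, the first 34 bases into the intron (in lower case in the donor window above), and none before it. Of all internal exons, 25.7% had a match after them. Beside the Ank1 exon of 24 bases the first match lay 204 bases after the exon, and the Ank3 exon of 63 bases had none. With TGCATG, which contains GCATG, 4 of the 11 had a match, against 19.1% of all internal exons. A match is a string of letters and was not tested as a binding site.

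Other genes lay within the ankyrins. In Ank1, the microRNA Mir486 (chr8:24253027-24253154, plus strand) lay in an intron of at least 6560 bases of 13 transcripts, the small forms included. The pseudogene Gm15815 (chr8:24237931-24238182) lay in an intron of 10 transcripts. Gm15816, a processed transcript of the opposite strand (chr8:24249266-24260057), spanned the start of the small forms and overlapped exons of Ank1. In Ank2, the lincRNA Gm16958 (chr3:126864223-126871206, plus strand, 2 transcripts) overlapped the start at 247 kb, chr3:126865254, and the snoRNA SNORA17.240 lay in an intron. No gene overlapped Ank3. The library preparation in the labels gives no strand marking, so reads of Ank1 or Ank2 and of an antisense partner could not be told apart where exons overlap.

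Genes of a fixed list of ankyrin partners were counted in the same way. Spectrins of both the alpha and the beta kind were on the list, and direct binding to an ankyrin was not checked for any listed gene. From 22 partners (6 spectrins, 4 L1 family adhesion molecules, 6 ion channel subunits and 6 others), all were found, the 6 spectrins under their older symbols. An internal exon over 1000 bases occurred in 2 of them, the alpha spectrins Spna1 (1547 bases) and Spna2 (2305). In the beta spectrins Spnb1 to Spnb4 the longest internal exon had 871 to 934 bases. The longest internal exons of Ank1, Ank2 and Ank3 (538, 6198 and 679 bases) were all above the median of the partners' longest, 363.5 bases. The ankyrins had 7, 7 and 3 TSS groups, and the partners had 1 (Spnb3, Chl1, Scn8a, Kcnq3 and Rhag) to 11 (L1cam), with a median of 3. No partner had more than 3 internal exons of 99 bases or a multiple.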

How the data were processed

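Poly(A) RNA-seq of 12 nucleus accumbens samples underlies the series. The authors deposited gene models of the Cufflinks package on mm9 (NCBIM37), and the deposited start and end of each exon are the only numbers used here; 0 columns hold values of a sample. Tools listed in the submitters' notes are TopHat, Cufflinks, Cuffdiff and CASAVA (versions not given in the sources used here). Groups come from the labels and enter no comparison.

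Members were taken by gene name. Exons were numbered in transcription order, giant exons were internal exons over 1000 bases, and inclusion was counted over transcripts with exons on both sides. Sequence came from the mm9 genome, and coding sequence from GENCODE M1 of the same build by Ensembl identifier. Partner symbols were matched through the RefSeq gene table of GRCm38.p6, used for names only. Translations were aligned locally with BLOSUM62 (gap open 11, extension 1). Stop-free stretches were searched in the 3 frames of the coding strand. No test was made, since models are not replicates. Members and lists were chosen with earlier results of these data known. Named genes were the members, genes overlapping them, the fixed partner list (some of whose genes are not reported here), and the 5 genes with the most exons of 99 bases or a multiple (with ties) or the longest internal exon; stretches of 5000 bases were added after the sequence had been seen, and the genes named for them were chosen after their values were seen. Python 3.11.15, pandas 2.3.3, pysam 0.24.0, samtools 1.23.1, Biopython 1.88 and matplotlib 3.10.9 were used. Counting functions were tested on made-up models with known answers.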

Additional observations from a re-analysis of the deposited data

How the results depend on the processing

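Of 50 values under alternative counting choices for 23 results, 46 stayed within 1.5 times the reported value. Some of these could not change. All Ank2 and Ank3 transcripts carried a protein identifier, and every ankyrin transcript had more than 1 exon. With first and last exons included, the longest exon was 4278 bases in Ank1 and 3605 bases in Ank3, both last exons, and it stayed at 6198 bases in Ank2. With a flank of 150 bases, GCATG lay beside 5 of the 11 giant and cassette exons, against 25.6% of all internal exons. With the flank of 300 bases, TGCATG lay beside 4 of the 11. With all 9 Ank2 transcripts as the denominator the giant exon was held by 66.7%. Counting any overlap, or transcripts with a protein identifier alone, left it at 85.7%. Start sites of Ank1 numbered 5 when transcripts without a protein identifier were left out. No paired analysis was possible because the file holds no values per sample. Transcript models depend on the cDNA and annotation behind them, so a form that is not listed here was not analysed.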
